A study of Mus musculus with 32 samples.

Results

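The G2/M and mitosis genes are 43 genes whose products carry a cell from G2 through mitosis and cytokinesis. They were taken by gene symbol from a table of read counts for 23337 mouse genes, and all 43 were present and had counts. The libraries come from 17 mice with gliomas started by intracranial injection of DF-1:PDGFB cells, chicken fibroblasts that deliver PDGFB, into XFM mice at 5 to 6 weeks of age. The labels do not spell out XFM. Mice entered the trial at a tumour volume of 20 to 40 mm3 and were dosed every day, with vehicle or with BLZ945, a small-molecule inhibitor of the CSF-1 receptor kinase, up to the onset of symptoms or an age of 26 weeks. Vehicle tumours received vehicle. Endpoint tumours, which the labels also call dormant, and Rebound tumours received BLZ945. The agent field names BLZ945 for all 32 libraries, and treatment was therefore taken from the stage. After perfusion and papain digestion, tumour-associated macrophages (TAM) were sorted as Cd11b+ and Gr1- cells and tumour cells (TC) as PDGFRA+ cells. There were 5 Vehicle, 6 Endpoint and 5 Rebound libraries of each sort, and 15 mice gave both sorts.

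Passage into mitosis is driven by cyclin B bound to the kinase CDK1, and by Polo and Aurora kinases that act at centrosomes, kinetochores and the cleavage plane. Anaphase begins when CDC20 activates the anaphase-promoting complex (APC/C), a ubiquitin ligase that destroys securin and cyclin B. The mRNAs of these genes peak in G2 and M and are scarce in resting cells, so bulk levels are widely used as a readout of how many cells are cycling. In bulk libraries fewer cycling cells, a larger share of other cells and less mRNA per cycling cell cannot be told apart. Many of these genes share a promoter design in which NF-Y binds CCAAT boxes and the MuvB complex binds a cell cycle genes homology region, TTTGAA. MuvB represses them in resting cells, as part of DREAM, and activates them in G2 together with B-MYB and FOXM1. Macrophages in gliomas can divide locally and respond to CSF-1 receptor signalling, and PDGF is a mitogen for the oligodendrocyte progenitor-like cells of these tumours.

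The promoters of Plk1, Cdk1, Cdc20 and Ube2c are shown because these genes were among those that moved in both sorts and hold both boxes. Each is 1 RefSeq window of GRCm38.p6 from 250 bases before to 50 bases after a transcription start, written 5′ to 3′ on the gene's strand. Capitals mark TTTGAA and CCAAT on either strand (TTCAAA and ATTGG are their reverse complements). The windows are chr7:122159185-122159484 (plus strand), chr10:69352863-69353162 (minus strand), chr4:118437294-118437593 (minus strand) and chr2:164769679-164769978 (plus strand).
Plk1: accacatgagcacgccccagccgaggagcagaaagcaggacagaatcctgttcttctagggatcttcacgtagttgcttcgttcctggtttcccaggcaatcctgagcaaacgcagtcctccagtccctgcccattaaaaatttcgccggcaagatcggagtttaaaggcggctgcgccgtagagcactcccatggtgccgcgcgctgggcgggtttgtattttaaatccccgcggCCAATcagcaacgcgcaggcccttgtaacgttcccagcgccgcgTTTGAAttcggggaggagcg
Cdk1: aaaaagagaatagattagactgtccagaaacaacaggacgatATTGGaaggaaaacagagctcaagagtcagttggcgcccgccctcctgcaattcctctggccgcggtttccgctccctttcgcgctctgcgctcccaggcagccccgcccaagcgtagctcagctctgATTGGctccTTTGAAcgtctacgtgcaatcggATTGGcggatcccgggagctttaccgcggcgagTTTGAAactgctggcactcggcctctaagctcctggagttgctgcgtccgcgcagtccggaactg
Cdc20: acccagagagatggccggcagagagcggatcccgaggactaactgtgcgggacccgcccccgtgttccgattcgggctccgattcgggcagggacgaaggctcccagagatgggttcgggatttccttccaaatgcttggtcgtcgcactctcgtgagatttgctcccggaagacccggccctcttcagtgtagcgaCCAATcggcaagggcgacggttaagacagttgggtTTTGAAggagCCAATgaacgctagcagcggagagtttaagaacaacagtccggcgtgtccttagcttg
Ube2c: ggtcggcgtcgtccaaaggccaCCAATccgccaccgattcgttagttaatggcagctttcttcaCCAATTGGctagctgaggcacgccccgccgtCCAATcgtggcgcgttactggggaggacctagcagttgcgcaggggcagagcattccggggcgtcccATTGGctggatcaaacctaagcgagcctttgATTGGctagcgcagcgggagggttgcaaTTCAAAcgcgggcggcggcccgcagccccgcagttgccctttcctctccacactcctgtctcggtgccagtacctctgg
Of the 43 genes, 36 had a window in the table. TTTGAA was found in 26 of these 36 windows (72.2%) and in 18.1% of the windows of 27025 genes. CCAAT was found in 27 (75%), against 37.9%, and both in 22 (61.1%), against 7.12%. Neither E2F-type site searched, TTTGGCGC or TTTCCCGC, was in any of the 36 windows, against 1.63% of all. These are matches of letters on both strands and not measured sites.

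Summed over the 43 genes, the CPM (read counts scaled to a common library total) were high in Vehicle and Endpoint TAM and low in Rebound TAM, whereas in TC they were high in Vehicle and Rebound tumours and low at Endpoint. The sum was 429.6, 1377, 2060.3, 1506 and 2233 CPM in TAM of Vehicle mice 54359, 54363, 57098, 57682 and 64247. In Endpoint mice 49823, 49825, 49830, 49831, 49843 and 49845 it was 1800, 1597, 1646, 1311, 1773 and 2118 CPM. In Rebound mice 49041, 49059, 49827, 49834 and 49849 it was 623, 288, 723, 418 and 476 CPM. All 6 Endpoint sums lay above all 5 Rebound sums, and 4 of the 5 Vehicle sums did too. Vehicle mouse 54359 lay among the Rebound libraries. In TC the sum was 3434, 3667, 3539.6, 4122 and 5949 CPM in the same Vehicle mice and 1202, 543, 651, 723, 2367 and 261 CPM in the same Endpoint mice. In Rebound mice 49041, 49059, 49692, 49827 and 49849 it was 4402, 5439.7, 6188, 1145 and 5554 CPM. All Endpoint TC sums were below all Vehicle sums, and all but that of mouse 49827 among the Rebound sums were above every Endpoint sum. Values per library below follow these orders of mice.

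**Figure D1:**
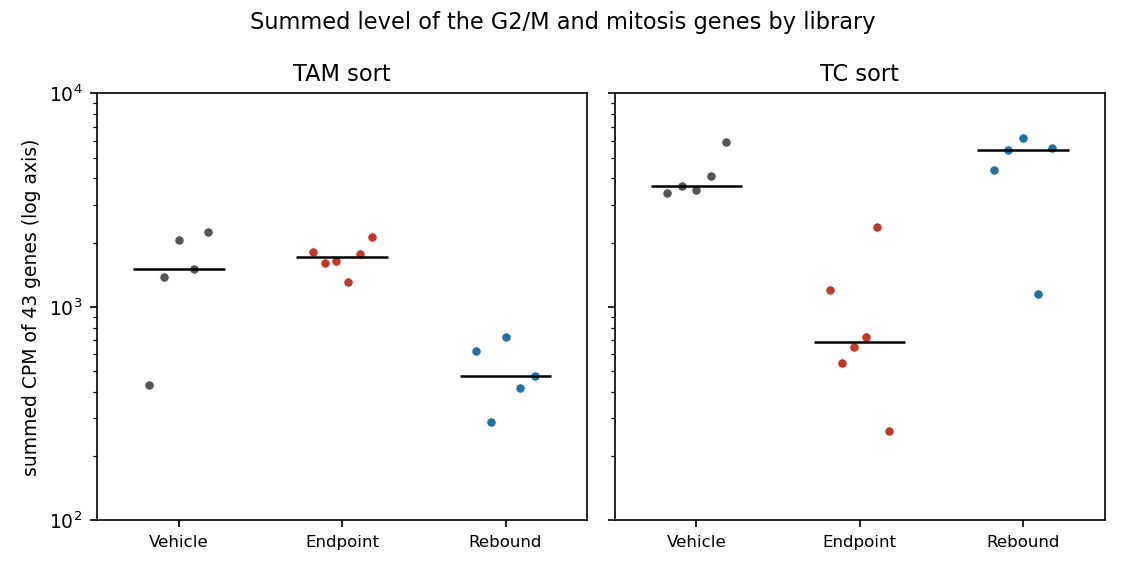
Summed level of the 43 genes in each library (CPM, log axis) by stage, for the TAM sort (left) and the TC sort (right); points are libraries and bars are medians. Rebound TAM libraries lie between 288 and 723 CPM and Endpoint TC libraries between 261 and 2367 CPM, while Endpoint TAM libraries lie between 1311 and 2118 CPM.

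Gene counts summed to between 4180176 and 30383148 per library, lowest in Endpoint TC (4180176 to 14029216). Of the 43 genes, 2 were at 0 counts in each of 2 Endpoint TC libraries (mice 49830 and 49845) and none in the other 30 libraries. Myeloid markers were high in every TAM library (mean log2 CPM 10.67 to 12.21 over 11 genes) and tumour cell markers were high in Vehicle TC (7.35 to 8.56 over 12 genes) and Rebound TC (7.42 to 8.80). In TAM the tumour cell markers were at 0.59 to 1.48 in Vehicle, -0.02 to 1.25 in Endpoint and 1.46 to 3.89 in Rebound libraries. The Endpoint TC libraries stood apart: 5 of 6 had tumour cell markers at 3.95 to 4.80, and that of mouse 49843 at 7.59. In these 5 libraries the 12 tumour cell markers summed to 470 to 713 CPM and the choroid plexus and ependymal markers to 24604 to 219300 CPM, and TC is used here only as the name of the sort. Ttr, a transcript of the choroid plexus, was at 6121 to 210450 CPM in Endpoint TC, against 8.44 to 597 CPM in Vehicle TC and 0.427 to 1108 CPM in Rebound TC. T and NK cell markers (12 genes) averaged 7.60 to 8.0 on the log2 scale in Endpoint TC of mice 49823, 49825, 49830 and 49831 and 7.69 in Rebound TC of mouse 49827, and at most 1.42 in the other TC libraries. In TAM they were highest in Rebound mice 49041, 49059 and 49849 (3.29, 3.72 and 2.00). All counts in the 22 BLZ945 libraries were even numbers, while each Vehicle library held 7858 to 9483 odd ones, a difference that follows treatment and cannot be told apart from it in comparisons with Vehicle. Comparisons of Rebound with Endpoint do not involve it. If each fragment was counted through both of its reads in the BLZ945 libraries, which the sources used here do not say, their totals overstate the fragments behind them, and the counts of those libraries were therefore also tested after halving.

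The median level of the 43 mitotic mRNAs in Endpoint TAM was close to that in Vehicle TAM. Of the 43 genes, 4 were higher in Endpoint than in Vehicle TAM and 2 were lower at an adjusted p under 0.05 (edgeR quasi-likelihood test, Benjamini-Hochberg over 13315 genes). Of all genes tested, 13.7% were higher and 19.3% lower, so both shares of the 43 genes lie below the background. The median log2 difference of the 43 was 0.08, and that of all genes was -0.03. The 4 that rose were Cenpf, a protein of the outer kinetochore (log2 1.64 ± 0.51 SE, adjusted p = 0.0205), Mki67, which coats mitotic chromosomes (log2 1.25 ± 0.41 SE, adjusted p = 0.0257), the kinetochore motor Cenpe (log2 1.14 ± 0.37 SE, adjusted p = 0.0244) and Cenpa, the histone H3 variant of the centromere (log2 0.84 ± 0.30 SE, adjusted p = 0.0357). The 2 that fell were the mitotic kinase Plk1 (log2 -1.11 ± 0.33 SE, adjusted p = 0.0132) and Kif2c, a motor that shortens microtubules (log2 -0.69 ± 0.23 SE, adjusted p = 0.0293). The call for Mki67 was lost without TAM Vehicle mouse 54363 (log2 1.22, adjusted p = 0.0508), TAM Vehicle mouse 57682 (log2 1.196, adjusted p = 0.0564) or TAM Endpoint mouse 49845 (log2 1.15, adjusted p = 0.0507). The call for Cenpe was lost without TAM Vehicle mouse 54363 (log2 1.04, adjusted p = 0.0562) or TAM Endpoint mouse 49823 (log2 1.04, adjusted p = 0.0516). The call for Cenpa was lost in 7 of the 16 fits that each left out 1 library, at most to an adjusted p of 0.0754 (log2 0.74, without TAM Vehicle mouse 57682). The call for Plk1 was lost without TAM Vehicle mouse 64247 (log2 -0.75, adjusted p = 0.0706). The call for Kif2c was lost in 5 of the 16 fits that each left out 1 library, at most to an adjusted p of 0.113 (log2 -0.50, without TAM Vehicle mouse 64247). Cenpf kept its call in each of the 16 such fits. Without Vehicle mouse 57682, 3 of the 43 genes were called in all, and in a fit of all 32 libraries together none was.

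A ratio of counts of Cenpf to Plk1 within each library, which does not depend on how libraries are scaled, was formed for this pair because they lay furthest apart in Endpoint against Vehicle TAM, and so carries no test. It was 0.542, 0.301, 0.766, 0.688 and 0.233 in the Vehicle TAM libraries, 4.22, 2.87, 4.87, 2.79, 2.25 and 1.73 in the Endpoint TAM libraries and 3.6, 0.612, 5.26, 2.21 and 3.06 in the Rebound TAM libraries. Every Endpoint ratio and 4 of the 5 Rebound ratios lay above every Vehicle ratio. The exons of Cenpf cover 15433 bases and those of Plk1 2199, so the level of the ratio depends on length, and its part in the difference between stages was not tested. In TC the ratio was 1.14, 2.41, 1.62, 2.6 and 1.73 in Vehicle, 1.44, 2.81, 4.5, 4.67, 5.26 and 0.667 in Endpoint and 2.27, 1.93, 2.31, 3.38 and 2.36 in Rebound libraries, and the stages overlapped.

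In Rebound TAM most of the 43 genes were low. Of the 43 genes, 39 were lower in Rebound than in Endpoint TAM and none was higher (edgeR quasi-likelihood test, adjusted p under 0.05). The background share of genes lower was 5.9%. The median log2 difference was -1.67, from Hmmr at -2.64 to Kif2c at -0.63, and that of all genes 0.02. The 4 not called were Bub1, Ttk, Kif2c and Spc25. Against Vehicle TAM, 31 of the 43 were lower and none was higher, where 7.73% of all genes were lower. The median log2 difference was -1.62, from Plk1 at -3.01 to Cenpf at -0.14. The 2 Vehicle comparisons share the 5 Vehicle libraries. Of the 39 calls against Endpoint and the 31 against Vehicle, 6 and 4 were lost in 1 or more of the 16 fits that each left out 1 library. Markers of some other cells were higher in Rebound than in Endpoint TAM and those of others lower, and their part in these results was not tested. T and NK markers were high in 3 of the 5 Rebound libraries. Pericyte and fibroblast markers were at -2.18 to -0.34 (mean log2 CPM) in Endpoint TAM and at 2.15 to 3.86 in 4 of 5 Rebound libraries, with mouse 49827 at -1.63. Endothelial markers ran from -1.06 to 0.29 at Endpoint and from 0.29 to 2.66 at Rebound, neutrophil markers from 0.01 to 2.89 at Endpoint and from 3.23 to 5.30 at Rebound, and oligodendrocyte markers from 2.65 to 4.14 at Endpoint and from 3.51 to 5.89 at Rebound. Dendritic cell markers ran from 1.62 to 3.35 at Endpoint and from 3.30 to 5.54 at Rebound. Their summed CPM was lower on average at Rebound (699 to 1253 CPM) than at Endpoint (1152 to 1591 CPM). B cell markers overlapped, at -1.36 to -0.11 at Endpoint and -1.10 to 1.33 at Rebound. Lower at Rebound were neuron markers, from 0.63 to 1.78 at Endpoint and from -1.06 to 0.71 at Rebound. Astrocyte markers also fell on average, from 4.91 to 5.80 at Endpoint and from 3.73 to 5.63 at Rebound. The 2 Rebound TAM libraries without high T and NK markers were those of mouse 49827, with a sum over the 43 genes of 723 CPM, and of mouse 49834, with 418 CPM and the highest tumour cell markers of the TAM sort (3.89). With the other 3 left out, 11 genes were lower than in Endpoint TAM, where 0.767% of all genes were, and 10 lower than in Vehicle TAM, where 1.63% were. The median log2 differences of the 43 genes in that fit were -1.66 and -1.42. In a fit of all 32 libraries together, 25 were lower in Rebound than in Endpoint TAM, against 2.09% of all genes.

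**Figure D2:**
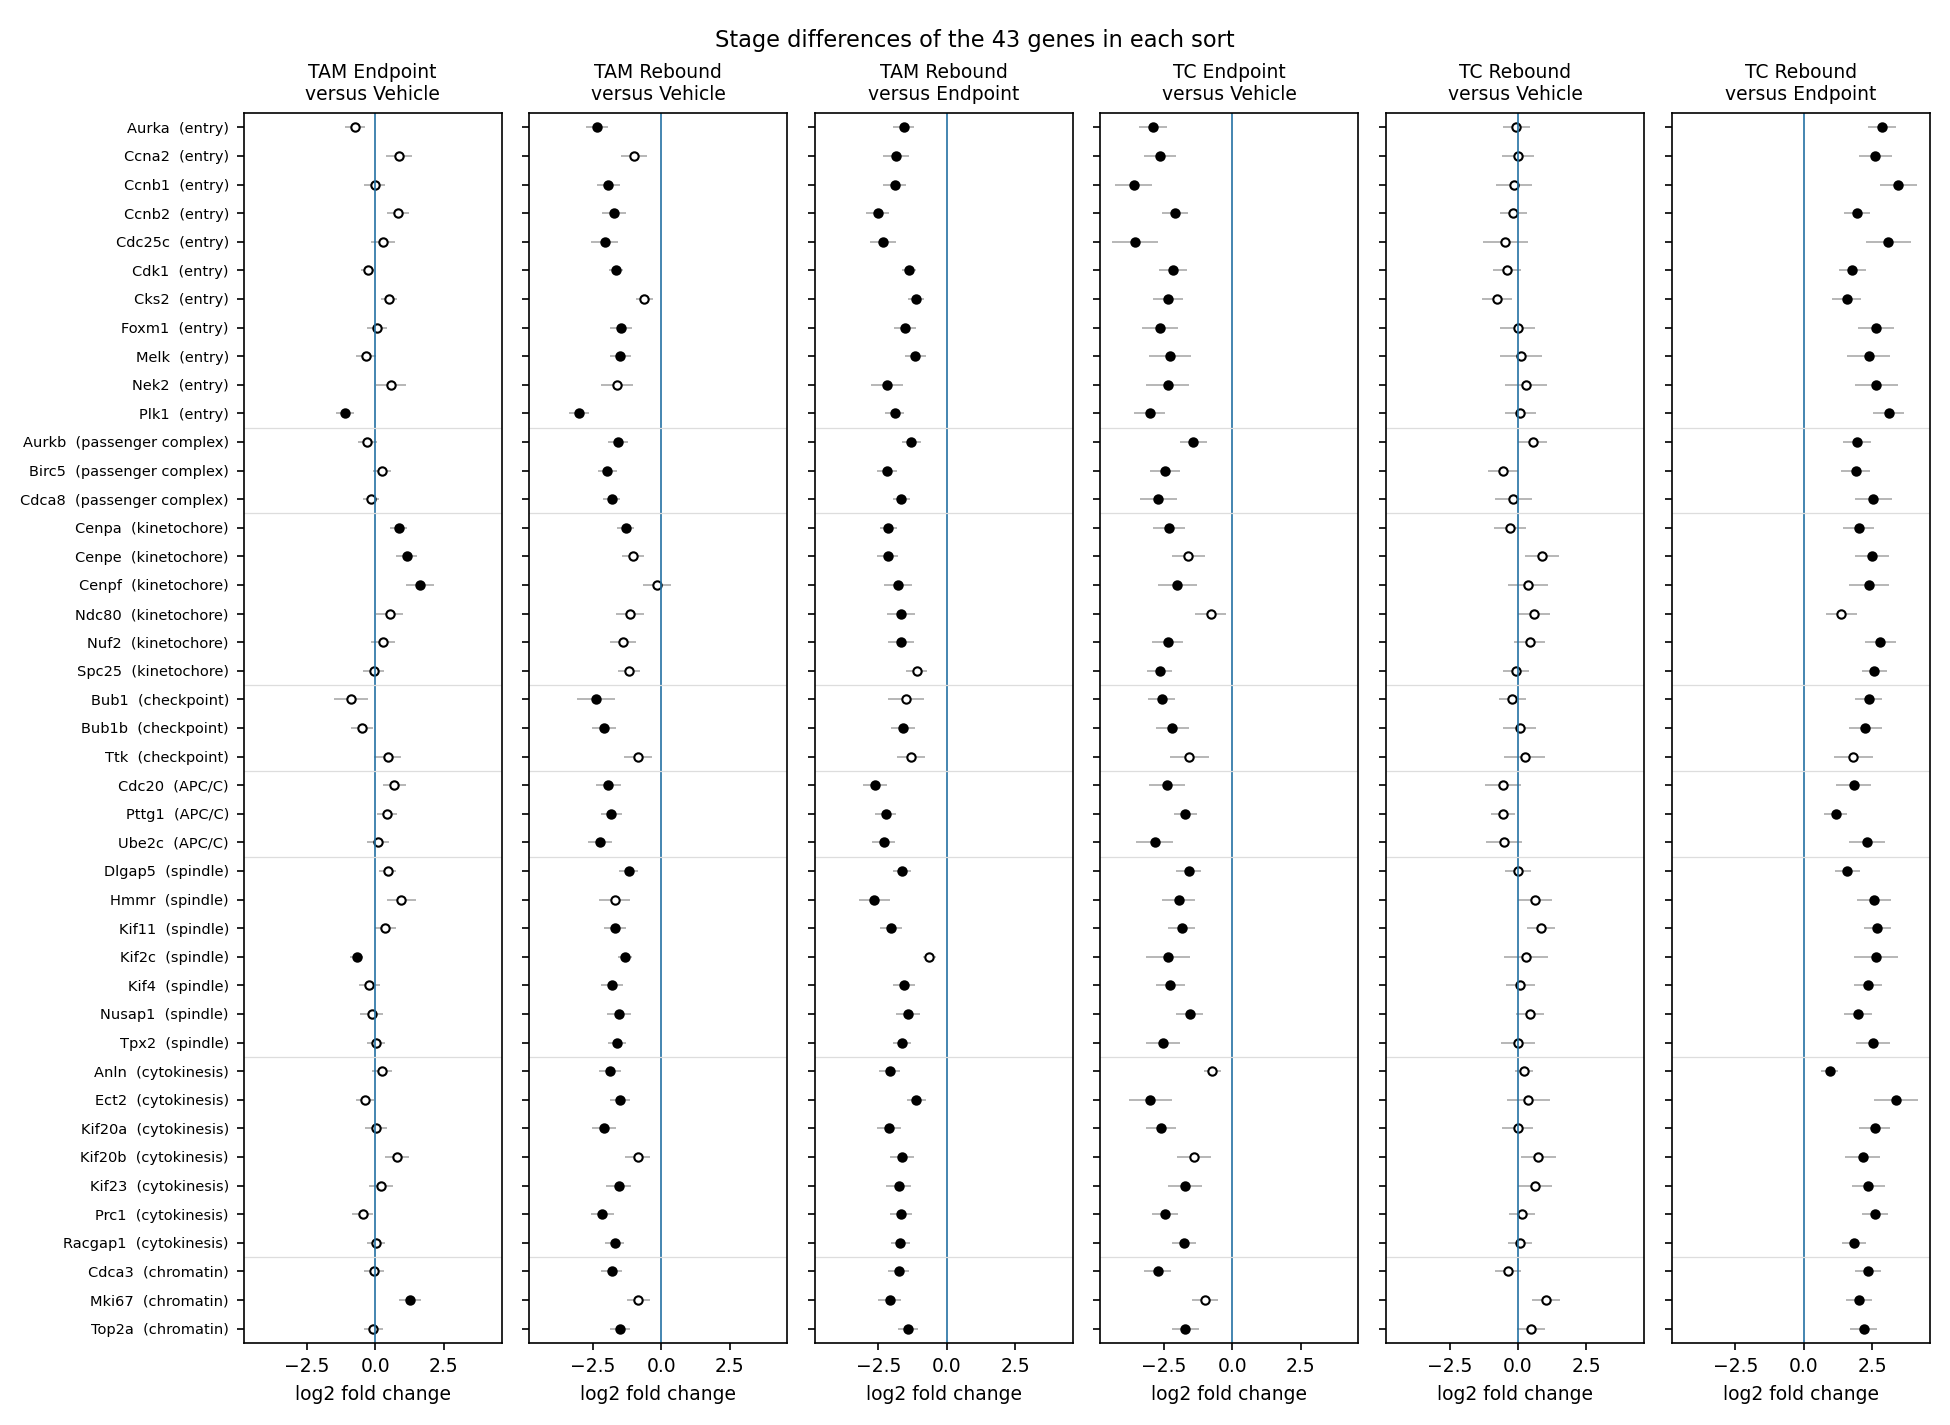
Log2 fold change of each of the 43 genes (rows, grouped by role) in the 3 stage comparisons of TAM (left) and of TC (right); bars are standard errors, filled points passed an adjusted p under 0.05 and open points did not. In Rebound against Endpoint, 39 genes lie below 0 and filled in TAM, and 41 lie above 0 and filled in TC.

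In the TC sort Endpoint was the low stage in CPM. Of the 43 genes, 37 were lower in Endpoint than in Vehicle TC and none was higher (edgeR quasi-likelihood test, adjusted p under 0.05, 14985 genes). The background share of genes lower was 14.8%. The median log2 difference was -2.32, from Ccnb1 at -3.61 to Anln at -0.73, and that of all genes 0.03. The 6 not called were Mki67, Cenpe, Ndc80, Ttk, Anln and Kif20b. From Endpoint to Rebound TC, 41 of the 43 were higher and none lower, with a background of 13.6% higher. The median log2 difference was 2.37, from Anln at 0.96 to Ccnb1 at 3.46. The 2 not called were Ndc80, a kinetochore subunit that grips microtubules (log2 1.38 ± 0.56 SE, adjusted p = 0.0788), and the checkpoint kinase Ttk (log2 1.82 ± 0.73 SE, adjusted p = 0.0758). The 2 comparisons share the 6 Endpoint libraries. Of their 37 and 41 calls, 8 and 7 were lost in 1 or more of the 16 fits that each left out 1 library. Between Rebound and Vehicle TC none of the 43 passed, and none had an unadjusted p under 0.05 (edgeR). DESeq2 called none after adjustment and had 1 at an unadjusted p under 0.05. Of all genes, 0.04% were higher and 0.0334% lower in edgeR, and 2.32% and 1.82% in DESeq2. The median log2 difference of the 43 in edgeR was 0.06, from Cks2 at -0.76 ± 0.55 (SE) to Mki67 at 1.02 ± 0.50. With errors of this size smaller differences of single genes could not be resolved. Without Endpoint mouse 49843 and Rebound mouse 49827, 1.21% of all genes were higher and 3.25% lower. None of the 43 was called in that fit, and their median was 0.30. The makeup of the Endpoint and Rebound TC libraries moved with these results, and its part in them was not tested beyond the values here. For each TC library the mean log2 CPM of the tumour cell markers was taken from the median of the 43 genes. This difference averaged -1.94 (-2.34 to -1.32) in Vehicle, -1.19 (-2.19 to 0.35) in Endpoint and -2.19 (-3.29 to -1.72) in Rebound TC. Relative to these markers the 43 genes were thus not lowest at Endpoint, and no test was made. Pericyte and fibroblast markers summed to 7968, 3266, 1988, 117 and 1052 CPM in the Rebound TC libraries. They summed to 13.5 to 159 CPM in Vehicle TC and 270 to 1015.5 CPM in Endpoint TC. The other lists of markers of non-tumour cells were on average lower in Rebound than in Endpoint TC. Mouse 49843, whose Endpoint TC library had tumour cell markers close to those of Vehicle TC and the highest myeloid markers of the TC sort (summed 13731 CPM, against 2614 to 6455 CPM in the other Endpoint TC libraries), had the highest Endpoint sum, 2367 CPM. Mouse 49845, with T and NK markers near 0 (mean log2 CPM -0.10) and the highest choroid plexus and ependymal markers of all libraries (mean log2 CPM 7.44), had the lowest, 261 CPM. Without mouse 49843 and Rebound mouse 49827, 41 genes were lower in Endpoint than in Vehicle TC and 43 higher in Rebound than in Endpoint TC, against 18% and 18.9% of all genes. Without the 5 TC libraries with T and NK markers, which left 2 Endpoint libraries, the counts were 6 and 16, against 2.8% and 5.69% of all genes, and the median log2 differences of the 43 genes were -1.77 and 2.14.

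The difference between the sorts was tested directly in 1 fit of all 32 libraries. From Vehicle to Endpoint, TAM changed more positively than TC for 32 of the 43 genes and more negatively for none (edgeR quasi-likelihood test of the interaction, adjusted p under 0.05, 15668 genes), against 8.73% of all genes. The median of this difference of log2 differences was 2.18, from Anln at 0.88 to Cdc25c at 3.74. From Endpoint to Rebound it was negative and called for all 43 genes, against 7.18% of all genes, with a median of -4.10, from Cdc25c at -5.41 to Cks2 at -2.66. From Vehicle to Rebound it was called for 1 gene, Plk1 (log2 -3.15 ± 0.70 SE, adjusted p = 0.03), against 0.198% of all genes, with a median of -1.77. All genes tested had medians of -0.16, 0.15 and -0.04 in these 3 tests, and -0.12 to -0.19 between the sorts at 1 stage. With the mouse as a replicate block the counts were 35, 42 and 0, so the call for Plk1 was lost (log2 -2.56, adjusted p = 0.31). It was also lost without the TAM library of Vehicle mouse 54363 or 64247 or of Rebound mouse 49041, 49059 or 49834, and without the TC library of Vehicle mouse 54359 or 54363 or of Rebound mouse 49059, 49692 or 49849, each leaving no gene called. Without the TC library of Rebound mouse 49827 the Vehicle to Rebound count was 9, without that of Endpoint mouse 49843 it was 2, without that of Endpoint mouse 49845 it was 3 and without TAM of Vehicle mouse 54359 it was 4. Without both TC mice 49843 and 49827 it was 21, against 1.46% of all genes, and 9 when the 5 TC libraries with T and NK markers were left out, against 1.12%. Leaving out those 5 took the Vehicle to Endpoint count to 9, against 5.11% of all genes, with a median of 2.00 over the 43 genes. Of the 32 Vehicle to Endpoint calls, 6 (Nek2, Cdk1, Kif20b, Aurka, Plk1 and Kif4) were lost in 1 or more of the 32 fits that each left out 1 library, and none of the 43 Endpoint to Rebound calls was. Cdk1 was lost without TC of Vehicle mouse 64247 (adjusted p = 0.0568) and Plk1 in 13 such fits (adjusted p at most 0.0737, without TAM of Endpoint mouse 49845).

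Set side by side within each stage, the 43 genes were lower in TAM than in TC for 10 genes in Vehicle tumours (background 29.2%), higher for 30 genes at Endpoint (background 18.7%) and lower for 42 genes at Rebound (background 27.4%), with no call in the opposite direction. The count of 10 in Vehicle tumours is a smaller share of the 43 genes than the share over all genes. The median log2 differences were -0.82, 1.35 and -2.59. The 10 in Vehicle tumours included Cdc25c, the phosphatase that activates CDK1 (log2 -2.20 ± 0.71 SE, adjusted p = 0.00938), and Cdc20 (log2 -1.94 ± 0.60 SE, adjusted p = 0.00742). At Rebound the gene not called was Kif2c (log2 -1.29 ± 0.62 SE, adjusted p = 0.0865). Of the 10, 30 and 42 calls, 3, 8 and 0 were lost in 1 or more of the 32 fits that each left out 1 library. In such fits the counts ran from 7 to 13 in Vehicle tumours and from 23 to 40 at Endpoint. Within single mice the ratio of the TAM sum to the TC sum was 0.202, 0.55, 0.895, 0.558 and 0.557 in the 5 Vehicle mice, 2.19, 4.19, 3.6, 2.53, 1.03 and 11.4 in the 6 Endpoint mice and 0.209, 0.0787, 0.928 and 0.123 in Rebound mice 49041, 49059, 49827 and 49849. TAM exceeded TC in 6 of 6 Endpoint mice and in none of the other 9. The smallest Endpoint ratio came from mouse 49843 and the largest Rebound ratio from mouse 49827. Without the 5 TC libraries with T and NK markers, 5 genes were higher in TAM than in TC at Endpoint, against 17.6% of all genes, with a median log2 difference of 1.00 over the 43 genes. In that fit, too, the count is a smaller share of the 43 genes than the share over all genes.

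**Figure D3:**
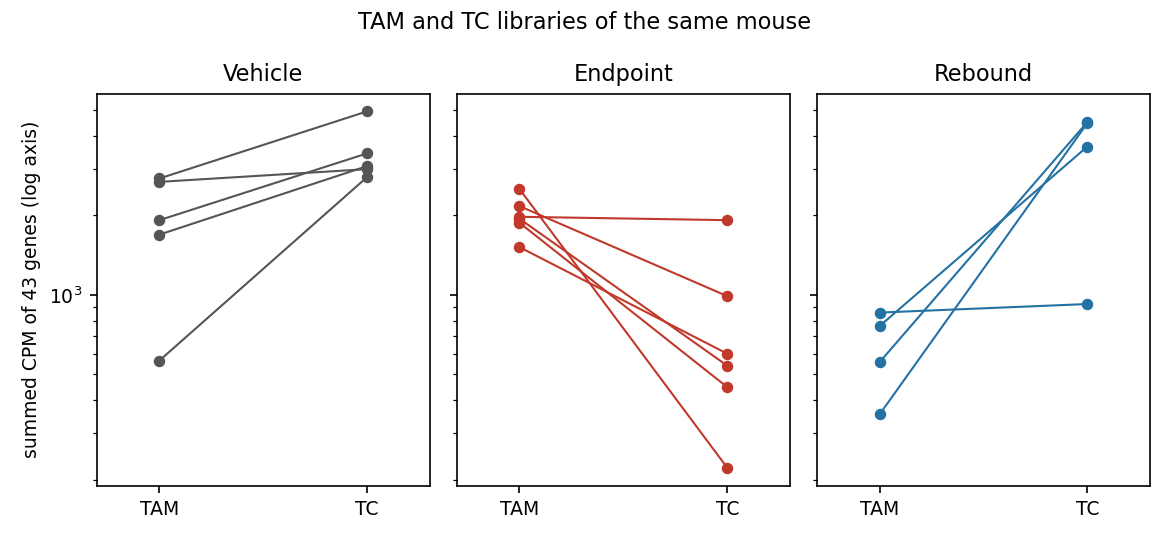
Summed level of the 43 genes (CPM from the fit of all libraries, log axis) in the TAM and the TC library of the same mouse, joined by a line, at each stage. The lines rise from TAM to TC in all 5 Vehicle mice and all 4 Rebound mice and fall in all 6 Endpoint mice, where the TAM to TC ratio runs from 1.03 to 11.4.

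Among the mitotic entry genes, Cdk1 (chr10:69335146-69352938, minus strand in GENCODE M21 on GRCm38) encodes the kinase that triggers mitosis. In the TAM sort Cdk1 stood at 37.9, 77.9, 75.1, 53.6 and 93.7 CPM in the Vehicle mice, at 33.7 to 74 CPM (median 57.5) in the 6 Endpoint mice and at 26.8, 14.5, 19.1, 24.2 and 23.1 CPM in the Rebound mice. Every Rebound TAM library lay below every Vehicle and every Endpoint TAM library. Against Endpoint, Cdk1 in Rebound TAM differed by log2 -1.37 ± 0.26 (SE, adjusted p = 0.00132), and against Vehicle by -1.65 ± 0.27 (SE, adjusted p = 0.000919). In the TC sort Cdk1 stood at 121, 154, 130.0, 105 and 287 CPM in the Vehicle mice, at 12.8 to 89.1 CPM (median 24.2) in the Endpoint mice and at 122, 149.9, 163, 24.6 and 145 CPM in the Rebound mice. Every Endpoint TC library lay below every Vehicle TC library, and Rebound mouse 49827 lay inside the Endpoint range. Endpoint TC differed from Vehicle TC by log2 -2.18 ± 0.50 (SE, adjusted p = 0.00599), and Rebound TC from Endpoint TC by 1.78 ± 0.50 (SE, adjusted p = 0.017).

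Ccnb1 (chr13:100778650-100786570, minus strand, GRCm38) encodes cyclin B1, the partner that gives CDK1 its mitotic activity. TAM libraries held Ccnb1 at 7.23, 40.1, 54, 39.4 and 54.1 CPM in Vehicle, at 27.7 to 51.6 CPM (median 38) in the 6 Endpoint and at 8.44, 5.16, 20.9, 7.86 and 8.77 CPM in Rebound mice. Every Rebound TAM library lay below every Endpoint one, and Vehicle mouse 54359 lay among the Rebound libraries. Rebound TAM differed from Endpoint TAM by log2 -1.90 ± 0.42 (SE, adjusted p = 0.00438) and from Vehicle TAM by -1.93 ± 0.43 (SE, adjusted p = 0.00719). TC libraries held it at 185, 156, 135, 206 and 331 CPM in Vehicle, at 3 to 50.4 CPM (median 9.68) in the 6 Endpoint and at 166, 242, 265, 16.2 and 224 CPM in Rebound mice. Every Endpoint TC library lay below every Vehicle TC library. Of the 43 genes it had the lowest log2 difference at Endpoint in TC and the highest at Rebound. The log2 difference in TC was -3.61 ± 0.68 (SE, adjusted p = 0.00204) for Endpoint against Vehicle and 3.46 ± 0.68 (SE, adjusted p = 0.00287) for Rebound against Endpoint.

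Plk1 (chr7:122159439-122169873, plus strand, GRCm38), a kinase of centrosome maturation, kinetochores and cytokinesis, fell at both BLZ945 stages in TAM. The level of Plk1 in TAM was 16.9, 61.8, 56.6, 41.7 and 107 CPM in Vehicle mice, 18.4 to 41.5 CPM (median 24.9) in the 6 Endpoint mice and 5.48, 5.75, 10.2, 6.05 and 7.77 CPM in Rebound mice. The Rebound TAM libraries lay below all others, and the Endpoint TAM libraries lay below the Vehicle ones except that of mouse 54359. The log2 difference of Rebound TAM was -1.90 ± 0.35 (SE, adjusted p = 0.00118) from Endpoint and -3.01 ± 0.37 (SE, adjusted p = 0.000171) from Vehicle. Its level in TC was 83.1, 64.9, 67.3, 69.5 and 106 CPM in Vehicle mice, 3.21 to 26 CPM (median 5.92) in the 6 Endpoint mice and 77.5, 100.2, 119, 12.7 and 105 CPM in Rebound mice. All Endpoint TC libraries lay below all Vehicle TC libraries, with the Rebound library of mouse 49827 inside the Endpoint range. In TC, Endpoint against Vehicle gave log2 -3.02 ± 0.57 (SE, adjusted p = 0.00197), and Rebound against Endpoint gave 3.11 ± 0.57 (SE, adjusted p = 0.00206).

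Foxm1 encodes the transcription factor that works with MuvB on these promoters. For Foxm1, the TAM levels were 8.61, 19.2, 12.5, 9.21 and 17.1 CPM in Vehicle mice, 8.99 to 16.2 CPM (median 14.7) in the 6 Endpoint mice and 6.8, 0.821, 3.3, 5.41 and 7.66 CPM in Rebound mice. All Rebound TAM libraries lay below all Vehicle and all Endpoint ones, whose ranges overlapped. Relative to Endpoint, Rebound TAM had a log2 difference of -1.53 ± 0.39 (SE, adjusted p = 0.0117), and relative to Vehicle -1.47 ± 0.40 (SE, adjusted p = 0.021). Libraries of the TC sort had Foxm1 at 52.3, 45.2, 42.4, 39.5 and 66.9 CPM in Vehicle mice, 1.71 to 22.8 CPM (median 4.39) in the 6 Endpoint mice and 38.1, 53.6, 76.1, 5.88 and 69.7 CPM in Rebound mice. Vehicle TC libraries lay above all Endpoint TC libraries. Log2 differences of -2.65 ± 0.65 (SE, adjusted p = 0.00856) for Endpoint against Vehicle and 2.63 ± 0.65 (SE, adjusted p = 0.00941) for Rebound against Endpoint were fitted in TC. Over all mitotic entry genes, which also include Ccna2, Ccnb2, Cdc25c, Cks2, Aurka, Nek2 and Melk, 11 of 11 were lower in Rebound than in Endpoint TAM (from Ccnb2 at -2.53 to Cks2 at -1.12) and 11 of 11 were higher in Rebound than in Endpoint TC (from Cks2 at 1.57 to Ccnb1 at 3.46).

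The chromosomal passenger complex corrects faulty attachments of kinetochores to the spindle. Its kinase is Aurkb. In the TAM sort Aurkb stood at 13.8, 45.7, 50.4, 34 and 57.8 CPM in the Vehicle mice, at 23.8 to 44.5 CPM (median 33) in the 6 Endpoint mice and at 25.7, 6.34, 12.4, 8.25 and 14.5 CPM in the Rebound mice. Rebound mouse 49041 lay inside the Endpoint range and the other 4 Rebound libraries lay below it. Against Endpoint, Aurkb in Rebound TAM differed by log2 -1.29 ± 0.36 (SE, adjusted p = 0.0183), and against Vehicle by -1.59 ± 0.37 (SE, adjusted p = 0.0093). In the TC sort Aurkb stood at 28.3, 52.2, 62.7, 38.9 and 78.7 CPM in the Vehicle mice, at 6.21 to 46.1 CPM (median 13.9) in the Endpoint mice and at 90.5, 92.4, 100.4, 15.1 and 80.1 CPM in the Rebound mice. Endpoint mouse 49843 lay inside the Vehicle range. Endpoint TC differed from Vehicle TC by log2 -1.42 ± 0.50 (SE, adjusted p = 0.0434), and Rebound TC from Endpoint TC by 1.96 ± 0.51 (SE, adjusted p = 0.0116). The call for Aurkb in TC (Endpoint against Vehicle) was lost in 12 of the 16 fits that each left out 1 library, at most to an adjusted p of 0.105 (log2 -1.23, without TC Vehicle mouse 64247). Birc5 encodes survivin, which brings the complex to centromeres. TAM libraries held Birc5 at 11.9, 44.5, 51.9, 40.1 and 62.1 CPM in Vehicle, at 42.1 to 60.8 CPM (median 47.1) in the 6 Endpoint and at 14.7, 6.57, 17.7, 5.41 and 9.66 CPM in Rebound mice. All Rebound libraries lay below all Endpoint libraries, and Vehicle mouse 54359 lay among them. Rebound TAM differed from Endpoint TAM by log2 -2.19 ± 0.36 (SE, adjusted p = 0.000545) and from Vehicle TAM by -1.96 ± 0.36 (SE, adjusted p = 0.00227). TC libraries held it at 110.0, 155, 90.3, 83.8 and 208 CPM in Vehicle, at 5.78 to 64.2 CPM (median 16) in the 6 Endpoint and at 82.3, 93.7, 122, 21.1 and 118 CPM in Rebound mice. Endpoint and Vehicle TC did not overlap, with Endpoint the lower. The log2 difference in TC was -2.47 ± 0.54 (SE, adjusted p = 0.00441) for Endpoint against Vehicle and 1.90 ± 0.53 (SE, adjusted p = 0.0171) for Rebound against Endpoint. Cdca8, the borealin subunit, moved likewise, by log2 -1.66 ± 0.31 (SE, adjusted p = 0.00121) from Endpoint to Rebound TAM and 2.54 ± 0.68 (SE, adjusted p = 0.014) from Endpoint to Rebound TC.

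Kinetochore proteins join chromosomes to the spindle. Cenpf (chr1:189640606-189688086, minus strand, GRCm38) had the largest rise of the 43 genes in Endpoint TAM. The level of Cenpf in TAM was 9.17, 18.6, 43.3, 28.7 and 25 CPM in Vehicle mice, 51.1 to 108 CPM (median 72.7) in the 6 Endpoint mice and 19.7, 3.52, 53.5, 13.4 and 23.8 CPM in Rebound mice. All 6 Endpoint TAM libraries lay above all Vehicle ones, and Rebound mouse 49827 lay inside the Endpoint range. The log2 difference of Rebound TAM was -1.77 ± 0.51 (SE, adjusted p = 0.0248) from Endpoint and -0.14 ± 0.51 (SE, adjusted p = 0.888) from Vehicle. Its level in TC was 94.7, 156, 109, 181 and 183 CPM in Vehicle mice, 2.14 to 137 CPM (median 18.5) in the 6 Endpoint mice and 176, 194, 274, 42.8 and 247 CPM in Rebound mice. Endpoint mouse 49843 lay inside the Vehicle TC range and the other 5 far below it. In TC, Endpoint against Vehicle gave log2 -2.02 ± 0.71 (SE, adjusted p = 0.0438), and Rebound against Endpoint gave 2.39 ± 0.72 (SE, adjusted p = 0.0247). The call for Cenpf in TAM (Rebound against Endpoint) was lost without TAM Rebound mouse 49041 (log2 -1.72, adjusted p = 0.0532) or TAM Rebound mouse 49834 (log2 -1.65, adjusted p = 0.0551). The call for Cenpf in TC (Endpoint against Vehicle) was lost in 12 of the 16 fits that each left out 1 library, at most to an adjusted p of 0.0848 (log2 -1.87, without TC Endpoint mouse 49831). The call for Cenpf in TC (Rebound against Endpoint) was lost in 4 of the 16 fits that each left out 1 library, at most to an adjusted p of 0.0585 (log2 2.21, without TC Rebound mouse 49692). Without the 3 Rebound TAM libraries with T and NK markers, the log2 difference of Cenpf from Vehicle was 0.41, of the opposite sign and not called. Over the kinetochore genes, which also include Cenpa, Cenpe, Ndc80, Nuf2 and Spc25, 5 of 6 were lower in Rebound than in Endpoint TAM (from Cenpe at -2.16 to Ndc80 at -1.66) and 5 of 6 were higher in Rebound than in Endpoint TC (from Cenpa at 2.01 to Nuf2 at 2.80).

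The spindle assembly checkpoint delays anaphase until all kinetochores are attached. Bub1b encodes BUBR1, a part of its inhibitor complex. For Bub1b, the TAM levels were 7.94, 41.7, 64.4, 44.4 and 63.3 CPM in Vehicle mice, 18.1 to 49.95 CPM (median 30.9) in the 6 Endpoint mice and 19.6, 5.98, 7.43, 7.73 and 11.4 CPM in Rebound mice. Rebound mouse 49041 lay inside the Endpoint TAM range and the other 4 Rebound libraries below it. Relative to Endpoint, Rebound TAM had a log2 difference of -1.59 ± 0.43 (SE, adjusted p = 0.0173), and relative to Vehicle -2.08 ± 0.45 (SE, adjusted p = 0.00652). Libraries of the TC sort had Bub1b at 42.1, 48.2, 87.5, 99.1 and 128 CPM in Vehicle mice, 2.36 to 41.9 CPM (median 15.5) in the 6 Endpoint mice and 83.8, 104, 128, 9.37 and 96.9 CPM in Rebound mice. All Endpoint TC libraries lay below all Vehicle ones, by a narrow margin between Endpoint mouse 49843 and Vehicle mouse 54359. Log2 differences of -2.20 ± 0.60 (SE, adjusted p = 0.0141) for Endpoint against Vehicle and 2.26 ± 0.60 (SE, adjusted p = 0.0137) for Rebound against Endpoint were fitted in TC. Over Bub1b, Bub1 and Ttk, 1 of 3 was lower in Rebound than in Endpoint TAM (Bub1b at -1.59) and 2 of 3 were higher in Rebound than in Endpoint TC (Bub1b at 2.26 and Bub1 at 2.37).

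The APC/C group holds its activator, a ubiquitin-conjugating enzyme and its substrate securin. Cdc20 is the activator. In the TAM sort Cdc20 stood at 6.66, 17.1, 10.3, 6.79 and 24.7 CPM in the Vehicle mice, at 14.4 to 29.8 CPM (median 21.2) in the 6 Endpoint mice and at 4.72, 1.41, 7.01, 1.16 and 2.89 CPM in the Rebound mice. All Rebound TAM libraries lay below all Endpoint ones and overlapped the Vehicle ones. Against Endpoint, Cdc20 in Rebound TAM differed by log2 -2.63 ± 0.45 (SE, adjusted p = 0.000802), and against Vehicle by -1.93 ± 0.45 (SE, adjusted p = 0.00906). In the TC sort Cdc20 stood at 73.1, 48.2, 44.1, 56.8 and 157 CPM in the Vehicle mice, at 3.85 to 47.7 CPM (median 8.34) in the Endpoint mice and at 32, 69.5, 72.3, 8.45 and 76.9 CPM in the Rebound mice. Endpoint mouse 49843 lay inside the Vehicle TC range. Endpoint TC differed from Vehicle TC by log2 -2.37 ± 0.66 (SE, adjusted p = 0.015), and Rebound TC from Endpoint TC by 1.83 ± 0.65 (SE, adjusted p = 0.0486). The call for Cdc20 in TC (Rebound against Endpoint) was lost in 13 of the 16 fits that each left out 1 library, at most to an adjusted p of 0.109 (log2 1.64, without TC Rebound mouse 49849).

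Ube2c encodes the enzyme that starts ubiquitin chains for the APC/C. TAM libraries held Ube2c at 13.7, 49.2, 30.8, 20.4 and 65.6 CPM in Vehicle, at 31.4 to 51 CPM (median 35.3) in the 6 Endpoint and at 4.72, 4.11, 18.2, 6.96 and 4.66 CPM in Rebound mice. Every Rebound TAM value was lower than every Endpoint one. Rebound TAM differed from Endpoint TAM by log2 -2.31 ± 0.43 (SE, adjusted p = 0.00132) and from Vehicle TAM by -2.22 ± 0.43 (SE, adjusted p = 0.0037). TC libraries held it at 217, 201, 79, 78.5 and 410.0 CPM in Vehicle, at 7.49 to 69.5 CPM (median 18.2) in the 6 Endpoint and at 105, 193, 199, 17.4 and 170.4 CPM in Rebound mice. All Endpoint TC libraries lay below all Vehicle ones, and the Vehicle libraries themselves were widely spread. The log2 difference in TC was -2.84 ± 0.66 (SE, adjusted p = 0.00665) for Endpoint against Vehicle and 2.32 ± 0.65 (SE, adjusted p = 0.0181) for Rebound against Endpoint. Pttg1 encodes securin, the inhibitor of separase that is destroyed at anaphase. The level of Pttg1 in TAM was 13.2, 41.4, 40.3, 38.3 and 75.2 CPM in Vehicle mice, 45 to 65.7 CPM (median 54.5) in the 6 Endpoint mice and 7.68, 7.39, 25.3, 6.44 and 12.4 CPM in Rebound mice. Rebound and Endpoint TAM did not overlap, with Rebound the lower. The log2 difference of Rebound TAM was -2.23 ± 0.39 (SE, adjusted p = 0.000921) from Endpoint and -1.82 ± 0.39 (SE, adjusted p = 0.00612) from Vehicle. Its level in TC was 102, 100.2, 89.3, 101 and 163 CPM in Vehicle mice, 9.85 to 56.2 CPM (median 33.5) in the 6 Endpoint mice and 39.8, 86.2, 132, 24.6 and 94.5 CPM in Rebound mice. All Endpoint TC libraries lay below all Vehicle ones, and 2 Rebound libraries, of mice 49041 and 49827, lay inside the Endpoint range. In TC, Endpoint against Vehicle gave log2 -1.72 ± 0.42 (SE, adjusted p = 0.00752), and Rebound against Endpoint gave 1.17 ± 0.41 (SE, adjusted p = 0.0485). The call for Pttg1 in TC (Rebound against Endpoint) was lost in 12 of the 16 fits that each left out 1 library, at most to an adjusted p of 0.16 (log2 0.87, without TC Rebound mouse 49692).

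**Figure D4:**
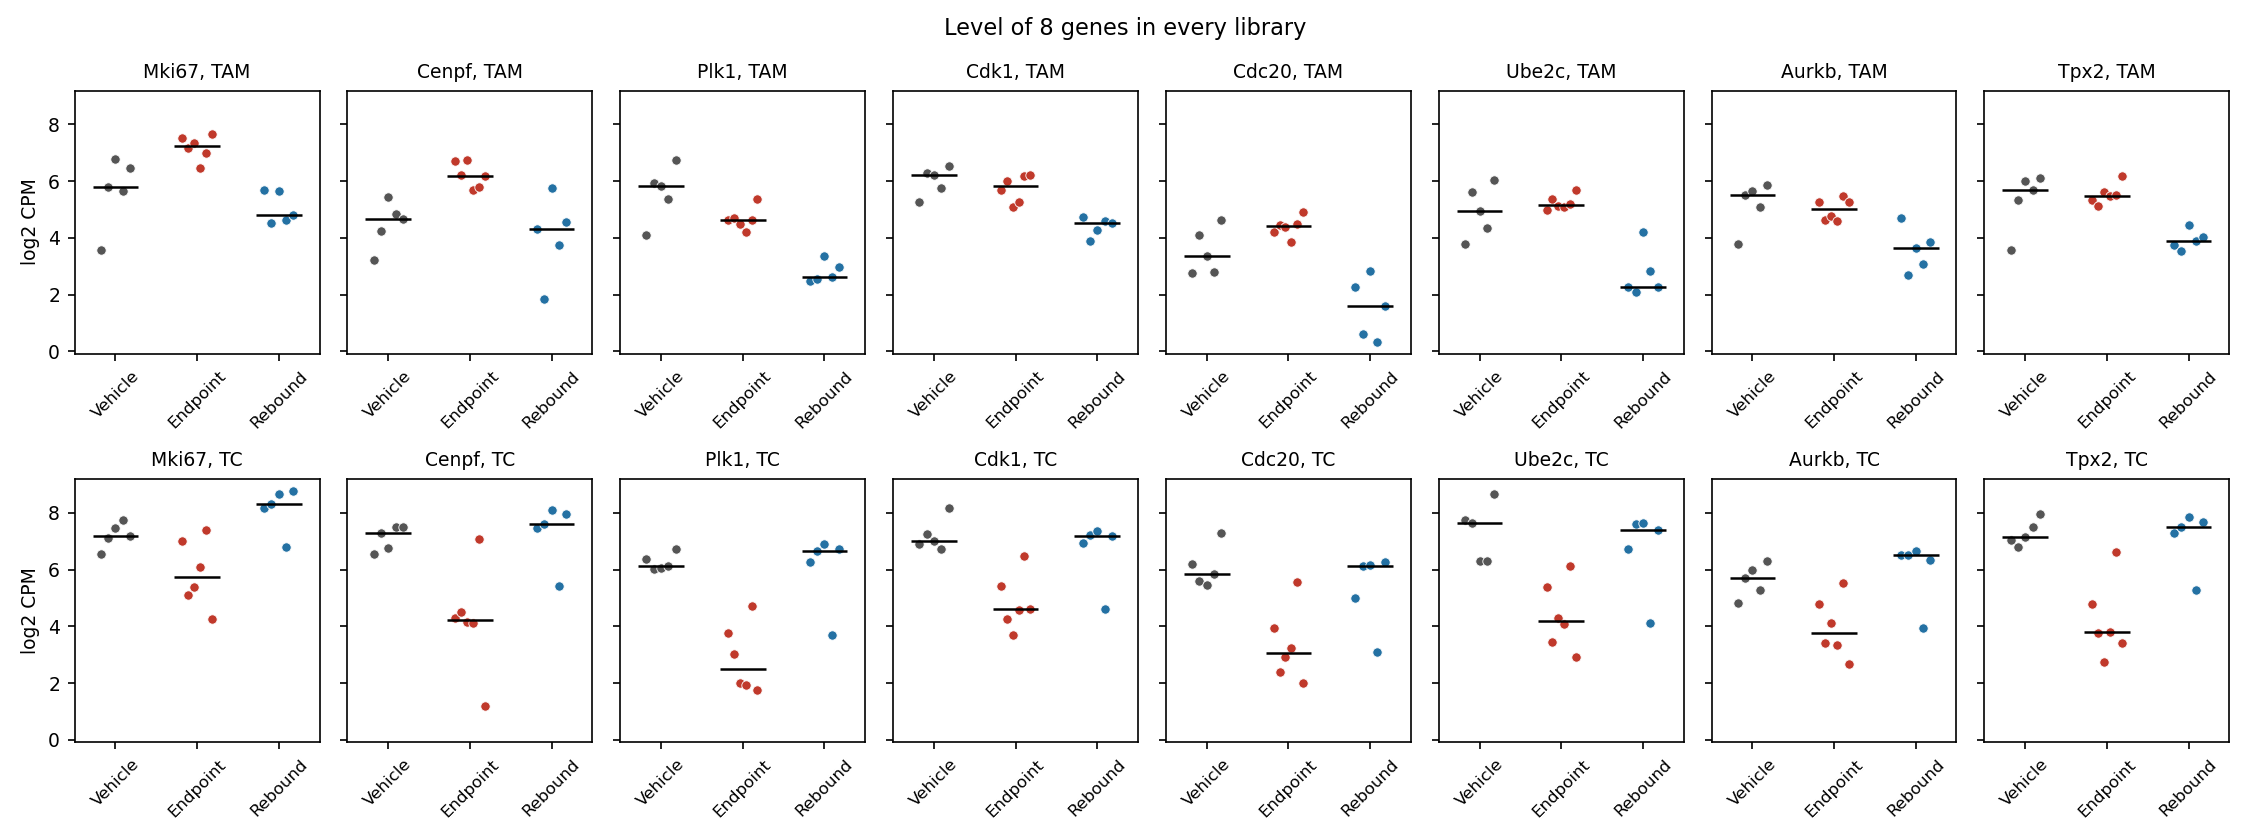
Level (log2 CPM) of Mki67, Cenpf, Plk1, Cdk1, Cdc20, Ube2c, Aurkb and Tpx2 in every library by stage, in the TAM sort (top row) and the TC sort (bottom row); points are libraries and bars are medians. All 6 Endpoint TAM points for Cenpf lie above the 5 Vehicle points, and all 5 Rebound TAM points for Plk1 and Cdk1 lie below those of both other stages.

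Spindle genes build and organise the bipolar spindle. Kif11 encodes the motor that pushes the spindle poles apart. For Kif11, the TAM levels were 4.1, 18.1, 46.6, 27.8 and 29.3 CPM in Vehicle mice, 25.5 to 36.9 CPM (median 31.2) in the 6 Endpoint mice and 12.5, 4.58, 8.53, 6.83 and 6.66 CPM in Rebound mice. All Rebound TAM libraries lay below all Endpoint ones, and Vehicle mouse 54359 was the lowest of all. Relative to Endpoint, Rebound TAM had a log2 difference of -2.04 ± 0.41 (SE, adjusted p = 0.00223), and relative to Vehicle -1.69 ± 0.41 (SE, adjusted p = 0.0117). Libraries of the TC sort had Kif11 at 51.8, 56, 77.9, 103 and 108 CPM in Vehicle mice, 4.92 to 49.8 CPM (median 14.9) in the 6 Endpoint mice and 155, 179, 185, 44.6 and 148 CPM in Rebound mice. No Endpoint TC library reached the Vehicle range. Log2 differences of -1.85 ± 0.49 (SE, adjusted p = 0.0115) for Endpoint against Vehicle and 2.69 ± 0.50 (SE, adjusted p = 0.00206) for Rebound against Endpoint were fitted in TC. Tpx2 encodes the activator of Aurora A on spindle microtubules. In the TAM sort Tpx2 stood at 11.7, 40.4, 64.4, 52 and 68.4 CPM in the Vehicle mice, at 34.9 to 72.9 CPM (median 44.8) in the 6 Endpoint mice and at 13.4, 11.5, 22, 14.7 and 16.2 CPM in the Rebound mice. No Rebound TAM library reached the Endpoint range. Against Endpoint, Tpx2 in Rebound TAM differed by log2 -1.62 ± 0.33 (SE, adjusted p = 0.00253), and against Vehicle by -1.61 ± 0.34 (SE, adjusted p = 0.00536). In the TC sort Tpx2 stood at 132, 111, 142, 182 and 251 CPM in the Vehicle mice, at 6.61 to 99.1 CPM (median 13.8) in the Endpoint mice and at 159, 181, 231, 38.6 and 207 CPM in the Rebound mice. Every Vehicle TC value was above every Endpoint one. Endpoint TC differed from Vehicle TC by log2 -2.53 ± 0.62 (SE, adjusted p = 0.00839), and Rebound TC from Endpoint TC by 2.53 ± 0.62 (SE, adjusted p = 0.00905). Over the spindle genes, which also include Kif2c, Kif4, Nusap1, Hmmr and Dlgap5, 6 of 7 were lower in Rebound than in Endpoint TAM (from Hmmr at -2.64 to Nusap1 at -1.40) and 7 of 7 were higher in Rebound than in Endpoint TC (from Dlgap5 at 1.60 to Kif11 at 2.69).

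Cytokinesis genes build the midzone and cleave the cell. Kif20a encodes a motor that carries regulators to the midzone. TAM libraries held Kif20a at 15.6, 37.8, 82.8, 57.7 and 85.6 CPM in Vehicle, at 46.8 to 70.3 CPM (median 53.8) in the 6 Endpoint and at 10.4, 7.51, 29.6, 5.8 and 12.1 CPM in Rebound mice. All Rebound TAM libraries lay below all Endpoint ones. Rebound TAM differed from Endpoint TAM by log2 -2.11 ± 0.43 (SE, adjusted p = 0.00272) and from Vehicle TAM by -2.10 ± 0.44 (SE, adjusted p = 0.0055). TC libraries held it at 105, 81, 92.2, 133 and 131 CPM in Vehicle, at 1.28 to 41.9 CPM (median 15.7) in the 6 Endpoint and at 143, 142, 92.6, 28.6 and 131 CPM in Rebound mice. All Endpoint TC libraries lay below all Vehicle TC libraries. The log2 difference in TC was -2.61 ± 0.56 (SE, adjusted p = 0.0041) for Endpoint against Vehicle and 2.59 ± 0.56 (SE, adjusted p = 0.00491) for Rebound against Endpoint. Racgap1 is a subunit of centralspindlin, which sets the cleavage plane. The level of Racgap1 in TAM was 18.8, 55.6, 80.9, 50.5 and 88.4 CPM in Vehicle mice, 44.4 to 73.6 CPM (median 63) in the 6 Endpoint mice and 31.5, 9.15, 21.5, 15.1 and 13.8 CPM in Rebound mice. Every Rebound TAM value was lower than every Endpoint one. The log2 difference of Rebound TAM was -1.70 ± 0.34 (SE, adjusted p = 0.00236) from Endpoint and -1.69 ± 0.35 (SE, adjusted p = 0.0049) from Vehicle. Its level in TC was 172, 139.7, 156, 184 and 234 CPM in Vehicle mice, 8.14 to 81.7 CPM (median 49.8) in the 6 Endpoint mice and 149, 204, 248, 67.8 and 255 CPM in Rebound mice. All Endpoint TC libraries lay below all Vehicle ones, and that of mouse 49845 stood far below the other 5. In TC, Endpoint against Vehicle gave log2 -1.78 ± 0.43 (SE, adjusted p = 0.00727), and Rebound against Endpoint gave 1.84 ± 0.43 (SE, adjusted p = 0.00672). Over the cytokinesis genes, which also include Prc1, Kif20b, Kif23, Ect2 and Anln, 7 of 7 were lower in Rebound than in Endpoint TAM (from Kif20a at -2.11 to Ect2 at -1.12) and 7 of 7 were higher in Rebound than in Endpoint TC (from Anln at 0.96 to Ect2 at 3.38).

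Mki67 (chr7:135689784-135716361, minus strand, GRCm38), the Ki-67 antigen used to stain dividing cells, keeps mitotic chromosomes apart. For Mki67, the TAM levels were 11.7, 55.9, 110.4, 50.2 and 88.8 CPM in Vehicle mice, 88.6 to 202 CPM (median 153) in the 6 Endpoint mice and 52.1, 22.9, 49.6, 24.7 and 28 CPM in Rebound mice. Vehicle mice 57098 and 64247 reached into the Endpoint TAM range, and all Rebound libraries lay below all Endpoint ones. Relative to Endpoint, Rebound TAM had a log2 difference of -2.09 ± 0.42 (SE, adjusted p = 0.00283), and relative to Vehicle -0.84 ± 0.42 (SE, adjusted p = 0.191). Libraries of the TC sort had Mki67 at 93.5, 138, 175, 214 and 147 CPM in Vehicle mice, 19.1 to 168 CPM (median 54.8) in the 6 Endpoint mice and 287, 321, 403, 112 and 438 CPM in Rebound mice. Endpoint mice 49823 and 49843 lay inside the Vehicle TC range. Log2 differences of -1.01 ± 0.47 (SE, adjusted p = 0.117) for Endpoint against Vehicle and 2.03 ± 0.48 (SE, adjusted p = 0.00718) for Rebound against Endpoint were fitted in TC. The difference from Vehicle to Endpoint TC, -1.01 on the log2 scale, did not pass, and it passed without mouse 49843 (log2 -1.40, adjusted p = 0.0254). From Vehicle to Rebound TAM it passed only without Vehicle mouse 54359 (log2 -1.11, adjusted p = 0.0241) among the fits that left out 1 library. Top2a encodes the topoisomerase that untangles sister chromatids. In the TAM sort Top2a stood at 39.4, 126, 255, 169 and 221 CPM in the Vehicle mice, at 97.6 to 205 CPM (median 153) in the 6 Endpoint mice and at 73.8, 29.6, 74.5, 57.8 and 48.7 CPM in the Rebound mice. Rebound and Endpoint TAM did not overlap, with Rebound the lower. Against Endpoint, Top2a in Rebound TAM differed by log2 -1.42 ± 0.36 (SE, adjusted p = 0.0103), and against Vehicle by -1.51 ± 0.37 (SE, adjusted p = 0.0121). In the TC sort Top2a stood at 299, 371, 433, 418 and 457 CPM in the Vehicle mice, at 21.6 to 287 CPM (median 81.2) in the Endpoint mice and at 519.8, 699, 778, 170.4 and 596 CPM in the Rebound mice. Endpoint and Vehicle TC did not overlap, with Endpoint the lower. Endpoint TC differed from Vehicle TC by log2 -1.72 ± 0.49 (SE, adjusted p = 0.0171), and Rebound TC from Endpoint TC by 2.20 ± 0.50 (SE, adjusted p = 0.00573). Over Mki67, Top2a and Cdca3, a trigger of Wee1 degradation, 3 of 3 were lower in Rebound than in Endpoint TAM (from Mki67 at -2.09 to Top2a at -1.42) and 3 of 3 were higher in Rebound than in Endpoint TC (from Mki67 at 2.03 to Cdca3 at 2.36).

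Other genes of the cell cycle, in lists chosen with earlier results of these data known, are given by their counts at an adjusted p under 0.05 (edgeR). The shares over all genes to set beside them were 13.7% higher and 19.3% lower in Endpoint than in Vehicle TAM. They were 11.7% higher and 5.9% lower in Rebound than in Endpoint TAM. In TC they were 14% higher and 14.8% lower in Endpoint than in Vehicle and 13.6% higher and 11.5% lower in Rebound than in Endpoint. Of 57 further mitotic genes, 26 were lower and 1 higher in Rebound than in Endpoint TAM, with a median log2 difference of -1.23. In TC 35 were lower at Endpoint than in Vehicle and 39 higher at Rebound than at Endpoint, with medians of -1.89 and 2.06. Aspm, a spindle pole protein, differed by log2 -2.56 ± 0.44 (SE, adjusted p = 0.000832) between Rebound and Endpoint TAM, and Gtse1, which restrains Kif2c, by log2 3.04 ± 0.42 (SE, adjusted p = 0.000529) between Rebound and Endpoint TC. From Vehicle to Endpoint TAM, 5 rose and 7 fell, among them the chromatin protein Hmgb2 (log2 1.22 ± 0.24 SE, adjusted p = 0.000753) and the scaffold Iqgap3 (log2 -1.91 ± 0.25 SE, adjusted p = 2.67e-05), and both counts are below the shares over all genes. Genes of G1/S and DNA replication gave these counts: 5 of 42 were lower in Rebound than in Endpoint TAM (median -0.72) and 3 were higher in Endpoint than in Vehicle TAM (median 0.13). In TC 29 of 42 were lower at Endpoint than in Vehicle (median -1.38) and 24 higher at Rebound than at Endpoint (median 1.08). Orc1, a subunit of the origin recognition complex, differed by log2 -1.77 ± 0.51 (SE, adjusted p = 0.021) between Rebound and Endpoint TAM, and Mcm2, a subunit of the replicative helicase, by log2 1.82 ± 0.41 (SE, adjusted p = 0.00538) between Rebound and Endpoint TC.

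Transcriptional regulators of the program, among them MuvB, DREAM, E2F and NF-Y subunits, were 21 genes. None was called between Rebound and Endpoint TAM (lowest adjusted p 0.0503, for Lin37). Of them, 4 were higher and 3 lower in Endpoint than in Vehicle TAM, the first including Tfdp2, a partner of E2F factors (log2 1.71 ± 0.28 SE, adjusted p = 0.000157), and Rb1, the retinoblastoma protein (log2 0.95 ± 0.26 SE, adjusted p = 0.00942). In TC at Endpoint, Mybl1, a relative of B-MYB, was lower than in Vehicle (log2 -3.34 ± 0.77 SE, adjusted p = 0.00585) and Rbl2, the pocket protein of DREAM, higher (log2 1.95 ± 0.45 SE, adjusted p = 0.00561), out of 4 lower and 2 higher. These counts of regulators are near the shares over all genes in both sorts. Among 16 CDK inhibitors, D cyclins and G1 kinases, Cdkn1b, which encodes p27, was higher in Endpoint than in Vehicle TAM (log2 1.44 ± 0.21 SE, adjusted p = 5.76e-05). Cyclin D2, Ccnd2, was lower (log2 -2.22 ± 0.36 SE, adjusted p = 0.00022) and was higher again in Rebound than in Endpoint TAM (log2 3.35 ± 0.38 SE, adjusted p = 3.74e-05). The list counted 4 higher and 4 lower in the first comparison and 5 higher and 4 lower in the second. In TC, Cdkn1c, which encodes p57, was higher at Endpoint than in Vehicle (log2 5.44 ± 0.75 SE, adjusted p = 0.000473) and lower at Rebound than at Endpoint (log2 -4.22 ± 0.70 SE, adjusted p = 0.00135), and Cdkn2b, which encodes p15, went the other way (log2 -3.21 ± 0.39 SE, adjusted p = 0.000251 and 3.57 ± 0.39 SE, adjusted p = 0.000303). Cdkn1c and Cdkn2b were picked for their low adjusted p and do not stand for the 16 genes in TC. Choroid plexus, T and NK cell markers moved with the same Endpoint TC libraries, and the part of these markers in these values was not tested. Of 25 controls of mitotic exit and the G2 checkpoint, 1 was lower in Rebound than in Endpoint TAM, the CDK1-inhibiting kinase Wee1 (log2 -1.82 ± 0.57 SE, adjusted p = 0.0331), and 1 was higher, the phosphatase Cdc14a (log2 0.72 ± 0.23 SE, adjusted p = 0.0319). Both counts are smaller shares of the 25 than the shares over all genes, 5.9% lower and 11.7% higher. In TC 8 were lower at Endpoint than in Vehicle and 6 higher at Rebound than at Endpoint, among them the checkpoint kinase Chek1 (log2 -2.74 ± 0.65 SE, adjusted p = 0.00669 and 2.48 ± 0.65 SE, adjusted p = 0.0118). Of 12 genes used in every cell, 5 were lower in Endpoint than in Vehicle TAM (median -0.33), and 1 was higher in Rebound than in Endpoint TAM (median 0.06). The 5 are a larger share than the 19.3% of all genes. In TC their median was -0.02 for Endpoint against Vehicle, -0.28 for Rebound against Vehicle and -0.35 for Rebound against Endpoint. For TAM minus TC it was -0.75 from Vehicle to Endpoint, 0.02 from Vehicle to Rebound and 0.46 from Endpoint to Rebound.

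Longer members tended to have the higher log2 differences in 2 TC comparisons. Spearman's rho between the exon length of the 43 genes (GENCODE M21, GRCm38) and their log2 difference was 0.63 in Rebound against Vehicle TC and 0.46 in Endpoint against Vehicle TC, and 0.01 in Rebound against Endpoint TC. Over all genes these were 0.28, -0.06 and 0.21. In TAM rho was 0.27 for Endpoint against Vehicle, 0.37 for Rebound against Vehicle and -0.02 for Rebound against Endpoint. The genes share libraries and are not independent, so no p is given. Over all genes in TAM these were 0.126, 0.205 and 0.041. For the 43 genes, rho was furthest from 0 in the comparisons against the Vehicle libraries, whose counts include odd numbers. Over all genes in TC it was further from 0 in Rebound against Endpoint than in Endpoint against Vehicle. The cause of these relations was not tested. Of the 43 genes, 13 share part of an exon with another gene in GENCODE M21, 11 of them with a gene on the opposite strand, such as Cdc20 with Elovl1, Ube2c with Tnnc2, Ccna2 with Exosc9 and Kif20a with Cdc23. The library kit does not mark strand, so reads from such overlaps cannot be told apart.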

How the data were processed

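The authors deposited 1 table of raw read counts per gene for 32 libraries, 16 of each sort, made from 2x50 base reads of SMART-Seq libraries, per the labels' protocols. Reads were handled with STAR 2.3.0e and SAMtools on mm10, per the submitters' processing notes. The counting tool is not given in the sources used here.

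Counts were tested with edgeR 4.0.16 in R 4.3.3 (filterByExpr, TMM scaling, robust quasi-likelihood fit, Benjamini-Hochberg over all genes tested, threshold 0.05), per sort for stages and in 1 fit of 6 groups for differences between the sorts. CPM are counts divided by the TMM-scaled library total and put on the usual scale of CPM, and log2 CPM add a prior count of 2. SE is the log2 fold change over the root of the F statistic. The fit was also run on counts simulated from the model that it assumes. They held no shift in cell makeup, so that run cannot show how the fit handles such shifts. DESeq2 1.42.0, other scaling and filters, and left-out libraries were alternatives.

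The 43 genes, their roles and the other lists were chosen with earlier results of these data known. Values per library are given for 17 genes, 1 to 4 per role. In each comparison the genes with the lowest and highest log2 fold change may be named, other members are named as called or not called, and from each other list up to 3 genes with the lowest adjusted p, of which those with the clearest known role are given. Replicates are mice. TAM and TC of a mouse come from the same animal, so the mouse was also used as a replicate block. The deviations of its 2 libraries from their group means correlated at 0.003 to 0.442. No pair of libraries of a group was alike within counting noise. Depth limits single genes in Endpoint TC most.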

Additional observations from a re-analysis of the deposited data

Results flagged for a closer look

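Single libraries far from the rest of their group were looked for in 108 sets of 5 or 6 values (the median log2 CPM of the 43 genes and 17 genes, in 6 groups). By Dixon's criterion at the 95% level, which chance passes in about 1 of 20 sets, 19 stood apart. The sets share libraries and are not independent, so the 19 cannot be measured against that rate. The TC library of Rebound mouse 49827 gave 14 of the 19, all low. The median over the 43 genes was 4.14 there and 6.39 to 6.88 in the other 4 Rebound TC libraries. The log2 CPM were Top2a 7.41 (others 9.02 to 9.60), Cdk1 4.63 (others 6.94 to 7.35), Ccnb1 4.03 (others 7.38 to 8.05), Plk1 3.68 (others 6.28 to 6.89), Foxm1 2.59 (others 5.26 to 6.25), Aurkb 3.93 (others 6.33 to 6.65), Birc5 4.41 (others 6.37 to 6.93), Cenpf 5.42 (others 7.46 to 8.10), Bub1b 3.25 (others 6.39 to 7.0), Ube2c 4.14 (others 6.72 to 7.64), Kif11 5.48 (others 7.21 to 7.53), Tpx2 5.27 (others 7.31 to 7.85) and Kif20a 4.85 (others 6.53 to 7.17). This library also had T and NK cell markers at 7.69 and myeloid markers at 6.92, and their part in its low values was not tested.

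The TAM library of Vehicle mouse 54359 was low for Ccnb1 (2.87, others 5.30 to 5.76), Birc5 (3.58, others 5.33 to 5.96) and Bub1b (3.01, others 5.39 to 6.01). Pttg1 was high in TC of Vehicle mouse 64247 (7.35, others 6.48 to 6.67) and Racgap1 was low in TC of Endpoint mouse 49845 (3.05, others 5.40 to 6.35).

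The stage differences of TAM and TC differed from each other, by the edgeR test of the interaction, for 32 of the 43 genes from Vehicle to Endpoint, for 1 from Vehicle to Rebound and for 43 from Endpoint to Rebound. From Vehicle to Endpoint the TAM log2 difference minus the TC one was Mki67 2.18, Cdk1 1.80, Ccnb1 3.51, Plk1 1.83, Foxm1 2.62, Birc5 2.61, Cenpf 3.58, Cdc20 2.99, Ube2c 2.85, Pttg1 2.05, Kif11 2.11, Tpx2 2.46, Kif20a 2.53 and Racgap1 1.69, of the 17 genes with values per library, and of these the calls for Cdk1 and Plk1 were lost in fits that left out 1 library. From Vehicle to Rebound it was -3.15 for Plk1. From Endpoint to Rebound it was Mki67 -4.10, Top2a -3.59, Cdk1 -3.11, Ccnb1 -5.35, Plk1 -4.98, Foxm1 -4.14, Aurkb -3.22, Birc5 -4.06, Cenpf -4.15, Bub1b -3.82, Cdc20 -4.42, Ube2c -4.60, Pttg1 -3.36, Kif11 -4.70, Tpx2 -4.13, Kif20a -4.68 and Racgap1 -3.50.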

How the results depend on the processing

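Counts of the 43 genes called kept within 1.5 times under RLE scaling, without the filter on low counts, with the BLZ945 counts halved and without Rn45s. DESeq2 moved 2 of the 12, to 5 for the Vehicle to Rebound difference between the sorts and to 16 for TAM against TC in Vehicle (1 and 10 in edgeR). A fit of all 32 libraries gave 0 for Endpoint against Vehicle TAM and 25 for Rebound against Endpoint TAM. The replicate block gave 35, 0 and 42 for the differences between the sorts (Endpoint against Vehicle, Rebound against Vehicle, Rebound against Endpoint) and 12, 34 and 38 for TAM against TC in Vehicle, Endpoint and Rebound, and among these 6 moved a count by over 1.5 times for Rebound against Vehicle alone.

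Leaving out libraries with other cells' markers was added after seeing the data. Without the 3 TAM Rebound libraries the counts were 10 for Rebound against Vehicle TAM, 11 for Rebound against Endpoint TAM and 0 for the Vehicle to Rebound difference. Without TC mice 49843 and 49827 that difference gave 21, and TAM against TC in Vehicle gave 17. Without the 5 TC libraries the counts were 6 for Endpoint against Vehicle TC, 16 for Rebound against Endpoint TC, 9 and 9 for the Endpoint and Rebound differences from Vehicle, 16 for TAM against TC in Vehicle and 5 at Endpoint. Fewer samples were left in each. Leaving out 1 library gave 3 to 6 for Endpoint against Vehicle TAM and 0 to 9 for the Vehicle to Rebound difference, and kept the other counts within 1.5 times.

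Of 4488 values of the 17 genes under an alternative, 4222 kept direction and side of the threshold, 158 lost and 35 gained a call, and 73 changed sign. Every value that changed sign had not been called with all libraries in edgeR, and the cause was not tested. For Endpoint against Vehicle TAM the fit of 32 gave Racgap1 -0.10, Kif20a -0.10, Tpx2 -0.10, Ube2c -0.0169 and Foxm1 -0.0515, and the fit without 3 TAM Rebound libraries Racgap1 -0.00505 and Kif20a -0.000232. The latter gave Cenpf 0.41 for Rebound against Vehicle TAM and 0.0117 for the difference between the sorts. For Rebound against Vehicle TC, RLE gave Kif20a 0.00148 and Tpx2 0.00682, DESeq2 Kif20a 0.00126 and Tpx2 0.00662, the fit without mice 49843 and 49827 Ccnb1 0.15, Kif20a 0.23, Tpx2 0.25 and Foxm1 0.27, and that without 5 TC libraries Ccnb1 0.15, Kif20a 0.23, Tpx2 0.25 and Foxm1 0.27. Leaving out 1 library, values of both signs were seen for Ccnb1 (-0.28 to 0.13), Foxm1 (-0.0563 to 0.24), Kif20a (-0.21 to 0.23), Racgap1 (-0.21 to 0.21), Top2a (-0.32 to 0.13), Tpx2 (-0.22 to 0.19) and Ube2c (-0.11 to 0.42) in Endpoint against Vehicle TAM, Cenpf (-0.74 to 0.15) in Rebound against Vehicle TAM, and Bub1b (-0.14 to 0.35), Ccnb1 (-0.32 to 0.15), Foxm1 (-0.23 to 0.27), Kif20a (-0.14 to 0.23), Plk1 (-0.0809 to 0.36), Racgap1 (-0.0819 to 0.27) and Tpx2 (-0.16 to 0.25) in Rebound against Vehicle TC.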
